A study of Mus musculus with 12 samples.

Results

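A set of 37 genes of central carbon metabolism was followed in mouse CD4+ T cells: the enzymes and regulators of glycolysis, the steps that take pyruvate into mitochondria, the pentose phosphate pathway, the tricarboxylic acid (TCA) cycle, and the transcription factor genes Hif1a and Myc. They are the 37 genes on a named list, matched by gene name among the 55487 rows of the raw count table, and all 37 were abundant enough to be tested. Naive (CD62L+, CD44 low) and effector (CD62L-, CD44 high) CD4+ T cells were sorted by flow cytometry from the spleen and peripheral lymph nodes of Rinl-deficient (KO) and wild-type (WT) mice, and their messenger RNA was sequenced. The groups were KO effector (libraries 10 to 12), WT effector (libraries 4 to 6), KO naive (libraries 7 to 9) and WT naive (libraries 1 to 3), with 3 libraries each, taken directly from mice with no treatment named in the labels. The stated purpose was to study Rinl, which encodes an activator of RAB5-type small GTPases, by comparing KO with WT in each cell type. The sources used here do not give the mice's age, sex or strain or the kind of Rinl allele. Since no label says that a group's libraries are from different mice, p-values reflect the spread between libraries, which may be technical.

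Glycolysis splits glucose into pyruvate, which is either reduced to lactate or carried into mitochondria and oxidised in the TCA cycle, while the pentose phosphate pathway diverts glucose phosphate to NADPH and ribose. T cells are known to raise glycolysis when antigen activates them, with MYC and HIF-1 as the best studied drivers of its genes. Transcript levels are part of this control and do not measure flux through a pathway.

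Levels are normalised counts (CPM) on TMM-normalised library sizes, and fold changes are log2 values ± SE from 1 edgeR quasi-likelihood model over the 12 libraries, called at an adjusted p below 0.05 over 15905 genes. Library totals ranged from 11606251 to 24320247 counts. Rinl had 45.8, 47.5 and 49.4 CPM in KO effector libraries, against 437, 451 and 463 CPM in WT effector libraries. In naive cells Rinl had 32.6, 32.2 and 34.4 CPM in KO libraries, against 298, 299 and 285 CPM in WT libraries. Every KO library was below every WT library, as its label says. The sort also showed: Cd44 averaged 229 and 256 CPM in KO and WT effector cells, against 18.9 and 18.8 CPM in KO and WT naive cells. Cd4 averaged 1043 and 991 CPM in KO and WT effector cells and 1005 and 996 CPM in KO and WT naive cells. Of the CD8 T cell markers, Cd8a did not exceed 0.408 CPM in any group mean, while Cd8b1 averaged 7.52 and 6.01 CPM in KO and WT effector cells, against 20.1 and 19.7 CPM in KO and WT naive cells, and was called lower in effector cells of both genotypes.

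The metabolic genes separated the cell types far more than the genotypes. Effector cells had more transcript of most glycolytic enzymes, and of Hif1a, than naive cells, and less of Pdk1, Idh2, Me2 and Myc. Most of the changes were small. KO and WT cells differed past the threshold in 1 of the 37 genes, Hif1a, which was higher in KO than in WT effector cells. A principal component analysis of log2 CPM over the 37 genes put 95.7% of the variance on a first component on which all effector libraries (2.01 to 2.83) lay apart from all naive libraries (-2.84 to -2.16), and 1.32% on the second. The genes were not scaled, so those with the largest changes weigh most in these percentages.

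**Figure D1:**
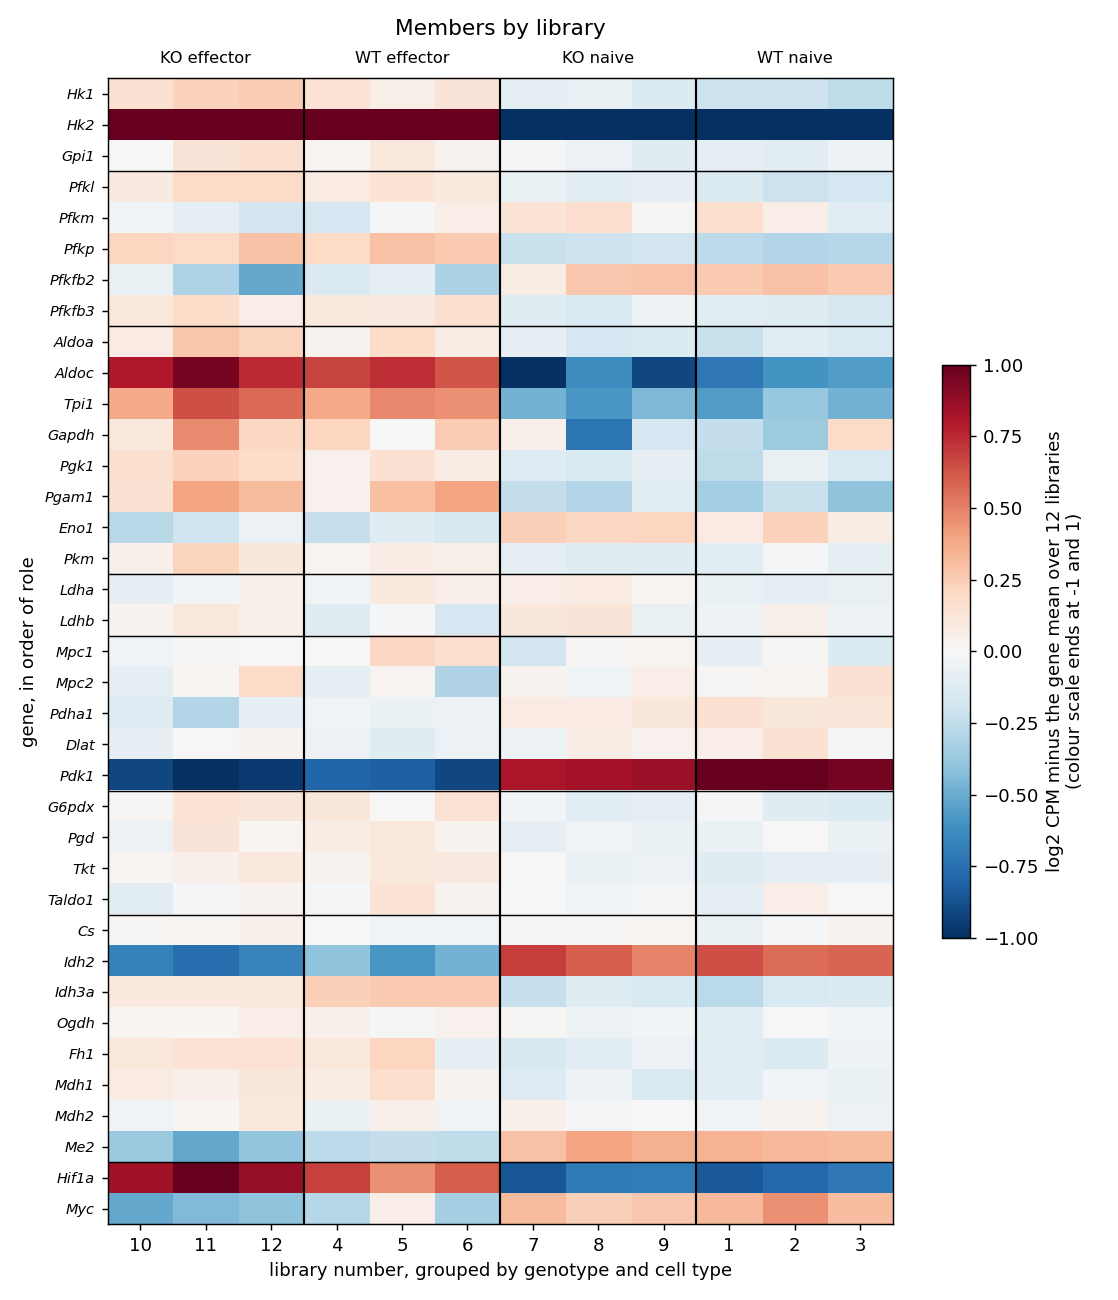
Log2 CPM of each of the 37 genes (rows, in order of role) in each of the 12 libraries (columns, by group), minus the gene's mean over all libraries, with the colour scale ending at -1 and 1. Hk2, Aldoc, Tpi1 and Hif1a are red in all 6 effector libraries and Pdk1, Idh2, Me2 and most Myc values are blue there, while the KO and WT blocks of the same cell type look alike.

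In KO mice, 19 of the 37 genes were higher and 8 lower in effector than in naive cells, or 73.0%, where 58.4% of all tested genes were called (31.6% higher and 26.8% lower). In WT mice the counts were again 19 higher and 8 lower, against 56.2% of all tested genes (30.2% higher and 25.9% lower). Among genes with a mean of at least 5 CPM, the share of all tested genes called was 63% in KO and 62% in WT. That filter left out Hk2, Aldoc and Gapdh, and 24 (KO) and 26 (WT) of the remaining members were called. The median log2 fold change of the 37 genes was 0.11 in KO and 0.14 in WT, against 0.01 over all tested genes in each genotype. Of the 37 genes, 18 were higher and 7 lower in both genotypes, Pfkm and Gapdh passed in KO and not in WT, Ldha and Dlat in WT and not in KO, and 8 in neither; none of these 37 genes passed the test of the difference between genotypes. The calls were mostly of small size, since 16 of 27 in KO and 17 of 27 in WT were under 1.4-fold.

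**Figure D2:**
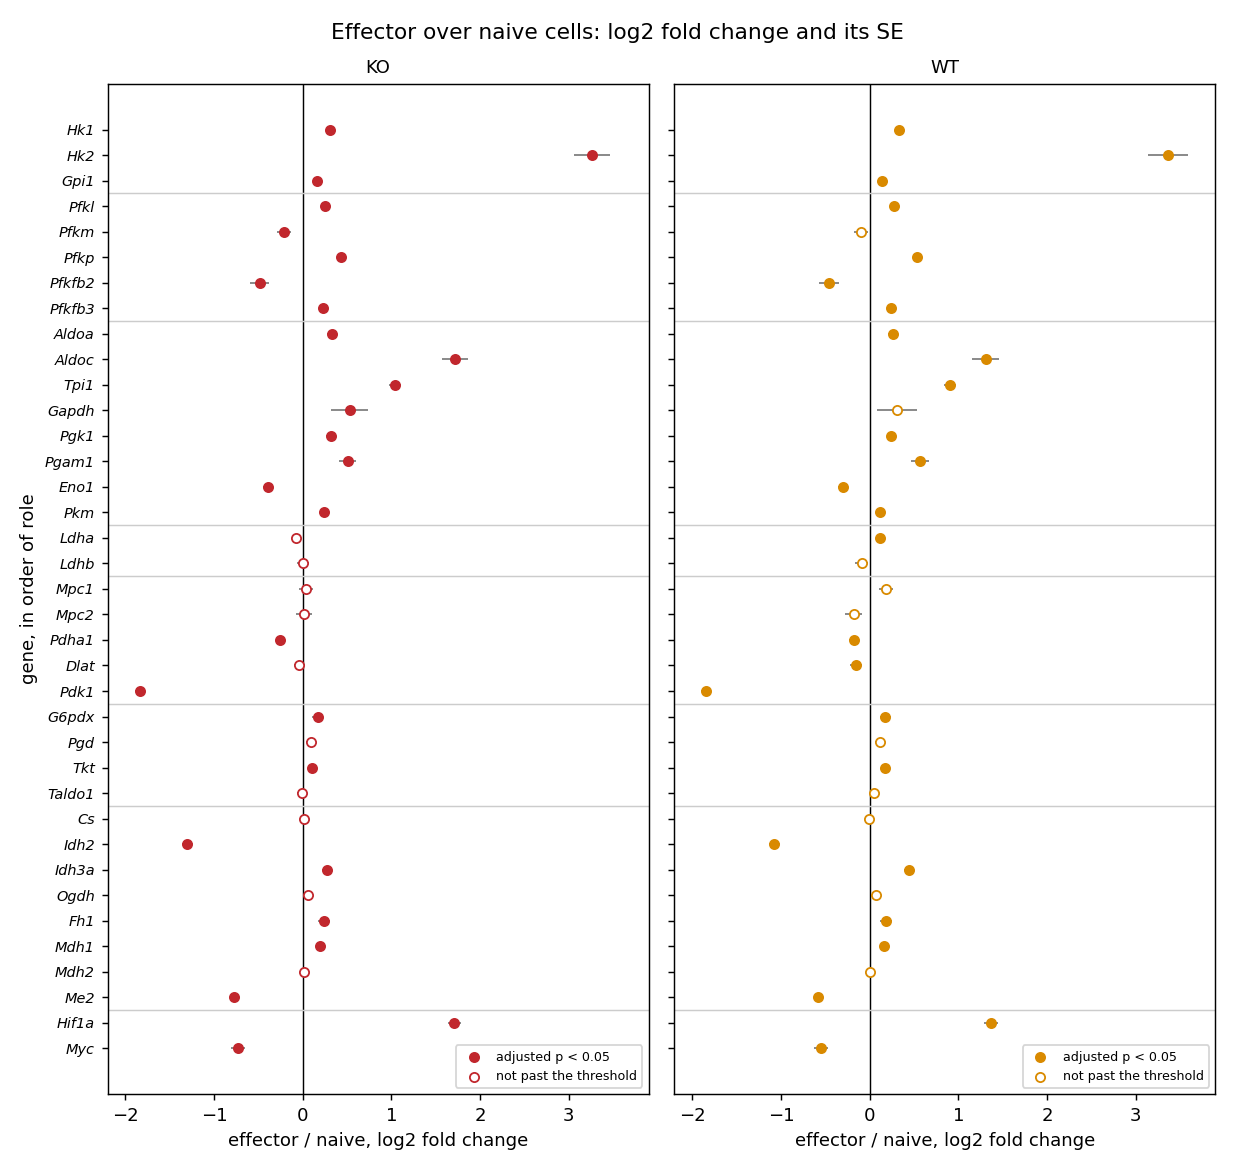
Log2 fold change of effector over naive cells with its SE for each of the 37 genes, in KO (left) and WT (right) mice; filled points passed an adjusted p of 0.05. Hk2, Aldoc and Hif1a lie furthest to the right and Pdk1 and Idh2 furthest to the left in both panels.

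Markers of dividing cells and of several other cell populations differed between the sorted fractions too. Beside their calls stand the shares over all tested genes, 31.6% higher and 26.8% lower in KO and 30.2% and 25.9% in WT. Summed over 12 cell cycle genes, the level was 109 to 125 CPM in KO effector and 120 to 162 CPM in WT effector libraries, against 17.7 to 22.2 CPM in KO naive and 16.1 to 22.1 CPM in WT naive libraries, and 11 of 12 (KO) and 12 of 12 (WT) were called higher. The 5 regulatory T cell markers, Foxp3 among them, summed to 1470 to 1710 CPM in KO effector and 1250 to 1450 CPM in WT effector libraries, against 206 to 219 CPM in KO naive and 175 to 193 CPM in WT naive libraries, with all 5 called higher. The 5 NK cell markers summed to 111 to 144 CPM in KO effector and 165 to 173 CPM in WT effector libraries, against 6.86 to 8.89 CPM in KO naive and 6.05 to 7.41 CPM in WT naive libraries, with the defining Ncr1 at no more than 0.758 CPM in a group mean. Of 9 B cell markers tested, 6 (KO) and 7 (WT) were called higher, and the list of 10 summed to 1070 to 1300 CPM in KO effector and 921 to 1100 CPM in WT effector libraries, against 541 to 594 CPM in KO naive and 587 to 622 CPM in WT naive libraries. Nearly all of that sum was Ighm, while the defining Ms4a1 stayed below 1 CPM in every group mean. Of 9 myeloid markers 2 were higher and 1 lower in each genotype, and none of 5 erythroid and platelet markers passed in either. The myeloid share called, 33.3%, was below that of all tested genes (58.4% in KO and 56.2% in WT). The 6 stromal and endothelial markers summed to 158 to 164 CPM in KO effector and 169 to 176 CPM in WT effector libraries, against 334 to 362 CPM in KO naive and 369 to 378 CPM in WT naive libraries. Nearly all of that sum was Pecam1, an adhesion molecule gene, and of the 3 tested, 1 (Col1a1) was called higher and 2 (Pecam1 and Cdh5) lower in each genotype. The part of these populations in the metabolic values was not tested, and in bulk RNA a change in the number of cells of a type and a change in RNA per cell cannot be told apart.

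Glucose enters glycolysis through hexokinase, and here the gene that is highest in these cells, Hk1, changed little while the much rarer Hk2 changed most. Hk2 encodes the hexokinase typical of activated and dividing cells. It (ENSMUSG00000000628, chr6:82725025-82774454, minus strand, GRCm38) had 6.38, 5.87 and 5.70 CPM in KO effector libraries and 5.04, 5.82 and 6.17 CPM in WT effector libraries, against 0.561, 0.723 and 0.564 CPM in KO naive and 0.368, 0.644 and 0.663 CPM in WT naive libraries. All 6 effector libraries lay above all 6 naive ones, and the log2 fold change was 3.26 ± 0.21 in KO (adjusted p = 1.55e-12) and 3.36 ± 0.23 in WT (adjusted p = 7.40e-12). Hk1, the constitutive hexokinase, averaged 229.9 ± 8.44 CPM in KO effector against 185 ± 3.87 CPM in KO naive cells (log2 0.31 ± 0.043), and 214 ± 6.54 CPM in WT effector against 170.4 ± 3.04 CPM in WT naive cells (log2 0.33 ± 0.043). Per unit of length, Hk2 was 2.20% ± 0.210 of hexokinase FPKM in KO effector cells, against 0.286% ± 0.0390 in KO naive cells, and 2.24% ± 0.251 in WT effector, against 0.283% ± 0.0860 in WT naive cells (SD, n = 3). These groups did not overlap, and the two-sided exact permutation p was 0.1, the smallest that 3 against 3 allows (0.222 adjusted over the 20 share comparisons). Gpi1, which isomerises glucose phosphate to fructose phosphate, rose slightly, by 0.16 ± 0.047 in KO and 0.14 ± 0.047 in WT on the log2 scale. Its call was lost in 1 of 20 alternative settings in KO and 2 of 20 in WT.

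At phosphofructokinase, the committed step, the platelet-type subunit gene Pfkp rose most. It had 149, 147 and 158 CPM in KO effector and 148, 158 and 154 CPM in WT effector libraries, against 110.3, 112 and 113 CPM in KO naive and 107, 105 and 106 CPM in WT naive libraries. Effector and naive values did not overlap, with log2 fold changes of 0.44 ± 0.044 in KO (adjusted p = 6.25e-09) and 0.53 ± 0.044 in WT (adjusted p = 2.82e-10). The liver-type subunit gene Pfkl rose by 0.25 ± 0.047 in KO and 0.28 ± 0.048 in WT, whereas the muscle-type Pfkm was lower in KO (-0.21 ± 0.078, adjusted p = 0.026, lost in 4 of 20 settings) and did not pass in WT (-0.10 ± 0.08, adjusted p = 0.331). Pfkp held 52.5% ± 1.18 of phosphofructokinase FPKM in KO effector cells, against 46.8% ± 0.757 in KO naive cells, and 53.2% ± 0.245 in WT effector cells, against 46.8% ± 0.868 in WT naive cells (SD, n = 3, two-sided exact permutation p = 0.1 in each genotype). For Pfkl the share was 34.1% ± 1.09 in KO effector, against 34.6% ± 0.604 in KO naive cells, and 32.8% ± 0.638 in WT effector, against 34.3% ± 0.665 in WT naive cells (two-sided exact permutation p = 0.7 in KO and 0.1 in WT). The 2 genes for bifunctional enzymes that set fructose 2,6-bisphosphate, the activator of this step, moved in opposite directions. Pfkfb3 rose by 0.23 ± 0.049 in KO and 0.25 ± 0.05 in WT, and Pfkfb2 fell, with changes of -0.49 ± 0.11 in KO and -0.46 ± 0.11 in WT, with a level of 12.8 CPM in WT naive cells.

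In the triose stage, Tpi1 and Aldoc rose most. Tpi1 (ENSMUSG00000023456, chr6:124810586-124814296, minus strand, GRCm38), the triose phosphate isomerase gene, had 61.9, 74.0 and 70.4 CPM in KO effector and 61.9, 66.3 and 65.3 CPM in WT effector libraries, against 34.1, 31.8 and 34.7 CPM in KO naive and 32.1, 36.5 and 34.2 CPM in WT naive libraries. All effector values exceeded all naive ones, with log2 fold changes of 1.04 ± 0.066 in KO (adjusted p = 1.86e-12) and 0.91 ± 0.069 in WT (adjusted p = 4.62e-11). Aldoc (ENSMUSG00000017390, chr11:78322968-78327781, plus strand, GRCm38), the brain-type aldolase gene, had 7.25, 8.04 and 6.95 CPM in KO effector and 6.63, 6.94 and 6.40 CPM in WT effector libraries, against 1.90, 2.68 and 2.20 CPM in KO naive and 2.52, 2.74 and 2.82 CPM in WT naive libraries. Its log2 fold change was 1.72 ± 0.15 in KO (adjusted p = 5.29e-10) and 1.31 ± 0.16 in WT (adjusted p = 1.31e-07). It stayed the minor aldolase: 1.13% ± 0.0822 of aldolase FPKM in KO effector, against 0.435% ± 0.0874 in KO naive cells, and 1.08% ± 0.0362 in WT effector, against 0.528% ± 0.0189 in WT naive cells (SD, n = 3, two-sided exact permutation p = 0.1 in each). Aldoa, the main aldolase gene, rose by 0.33 ± 0.052 in KO and 0.26 ± 0.052 in WT.

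Of the later enzymes, Pgk1 (phosphoglycerate kinase) rose by 0.31 ± 0.05 in KO and 0.25 ± 0.051 in WT, and Pgam1 (phosphoglycerate mutase) by 0.51 ± 0.095 and 0.57 ± 0.1. Pkm, the pyruvate kinase gene, rose by 0.24 ± 0.046 in KO (adjusted p = 6.82e-05) and 0.12 ± 0.046 in WT (adjusted p = 0.0327), and the WT call was lost in 5 of 20 settings. Its splice forms cannot be told apart in counts per gene. Eno1, the enolase gene, went the other way. It had 209.8, 222 and 243 CPM in KO effector and 217, 233 and 228 CPM in WT effector libraries, against 299, 292 and 295 CPM in KO naive and 269.5, 298 and 267 CPM in WT naive libraries. Effector and naive libraries did not overlap, with log2 changes of -0.40 ± 0.053 in KO (adjusted p = 6.24e-07) and -0.30 ± 0.053 in WT (adjusted p = 3.20e-05).

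Gapdh, the glyceraldehyde phosphate dehydrogenase gene and a common reference transcript, was listed at 2.73, 3.52 and 2.93 CPM in KO effector and 2.95, 2.54 and 3.02 CPM in WT effector libraries, against 2.63, 1.53 and 2.25 CPM in KO naive and 2.16, 1.99 and 2.90 CPM in WT naive libraries. The effector over naive change was 0.53 ± 0.21 in KO (adjusted p = 0.0342, lost in 4 of 19 settings) and 0.31 ± 0.22 in WT (adjusted p = 0.246). Its level per length, 1.56 FPKM in WT naive cells, stood below 19.3 FPKM for Tpi1 and 47.6 FPKM for Pgk1, enzymes next to it in the pathway. Of the 50-base windows of its longest coding transcript, 82.5% occur in transcripts of other genes, 215 of the 222 being pseudogenes. The same share was 72.2% for Eno1, 68.0% for Pgk1, 41.5% for Pgam1, 34.4% for Pkm, 29.6% for Mpc1, 27.0% for Ldhb, 25.3% for Gpi1 and 25.1% for Pfkfb2, and below 20% for the other 28 genes. The sources used here do not say how shared reads were counted, so the levels of these 9 genes are uncertain, and the part of shared sequence in their values was not tested. Among the other 28, the share was still 17.1% for Pfkp, 16.9% for Pdha1, 16.6% for Ldha and 13.5% for Aldoa, and the same limit holds for them. Named copies did carry counts: the pseudogene Pgk1-rs7 averaged 49.7 CPM in KO effector and 53.0 CPM in WT effector cells, against 46.3 CPM in KO naive and 44.4 CPM in WT naive cells. The pseudogene Ldha-ps2 averaged 25.5 CPM in KO effector and 24.6 CPM in WT effector cells, against 25.6 CPM in KO naive and 22.3 CPM in WT naive cells. Some genes also overlap a neighbour in the annotation, such as Pfkm with Senp1 (91.0 CPM on average), Pfkp with Pitrm1 (65.7 CPM) and G6pdx with Ikbkg (89.2 CPM), each on the opposite strand, and the counting's strand setting is not stated. For effector over naive cells, 14 of the 28 genes with under 20% of windows shared were called higher and 6 lower in KO, where 31.6% and 26.8% of all tested genes were. In WT, 15 were higher and 6 lower, against 30.2% and 25.9% of all tested genes.

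**Figure D3:**
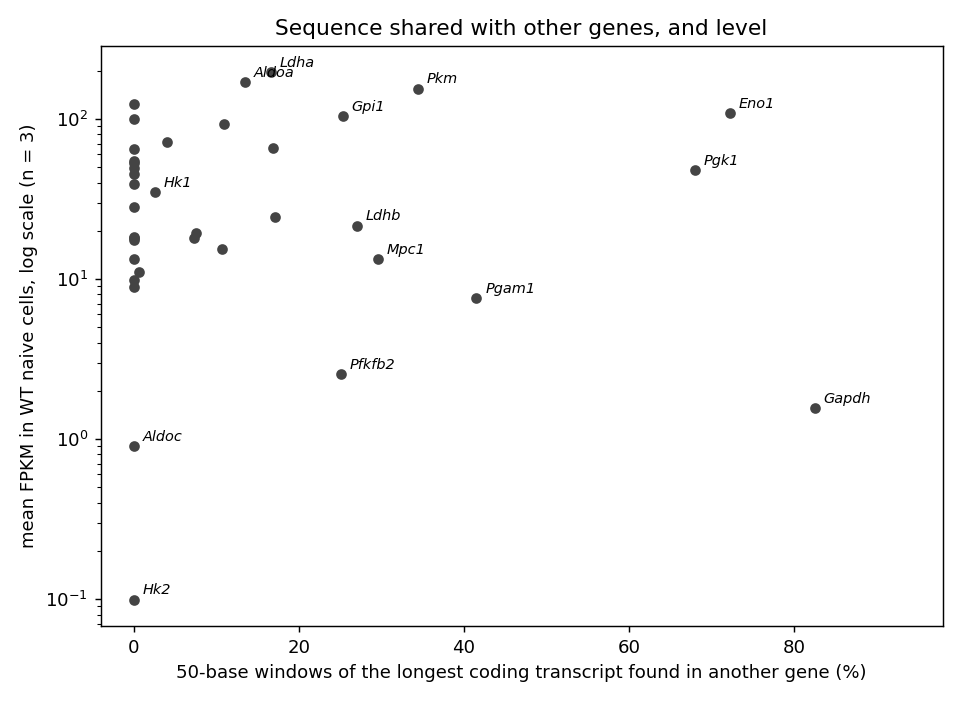
Mean FPKM in WT naive cells (n = 3, log axis) against the percentage of 50-base windows of the longest coding transcript that occur in another gene, 1 point per gene of the 37. Gapdh stands at the far right with 82.5% shared and 1.56 FPKM, while Hk2 and Aldoc are low without shared windows.

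Lactate dehydrogenase, which turns pyruvate into lactate, changed little. Ldha, its muscle-type subunit gene and per length the highest of the 37 in naive cells (216 FPKM in KO and 195 FPKM in WT), had 372, 387 and 407 CPM in KO effector and 384, 422 and 407 CPM in WT effector libraries, against 411, 418 and 401 CPM in KO naive and 375, 369 and 374 CPM in WT naive libraries. The highest values were in WT effector and KO naive libraries and the lowest in WT naive ones. The effector over naive change was -0.08 ± 0.045 in KO (adjusted p = 0.148) and 0.12 ± 0.045 in WT (adjusted p = 0.0321), and the WT call was lost in 6 of 20 settings. The genotypes' changes differed by -0.19 ± 0.064, with an unadjusted p of 0.00595 and an adjusted p of 0.294. Ldhb, the heart-type subunit gene, changed by 0.00 ± 0.069 in KO and -0.09 ± 0.073 in WT, neither past the threshold. Its share of lactate dehydrogenase FPKM was 10.2%, 10.3% and 9.55% in KO effector libraries, against 9.07%, 8.90% and 8.31% in WT effector libraries, and 9.84%, 9.82% and 8.94% in KO naive libraries, against 9.68%, 10.4% and 9.68% in WT naive libraries. The effector shares of KO and WT did not overlap (two-sided exact permutation p = 0.1, 0.222 adjusted).

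Entry of pyruvate into mitochondria held the largest fall. Pdk1 encodes a kinase that inactivates pyruvate dehydrogenase and so holds pyruvate back from oxidation. It (ENSMUSG00000006494, chr2:71873224-71903858, plus strand, GRCm38) had 138, 118 and 134 CPM in KO effector and 149.5, 147 and 138 CPM in WT effector libraries, against 458, 462 and 473 CPM in KO naive and 537, 523 and 505 CPM in WT naive libraries. No effector library reached any naive one, and the log2 change was -1.84 ± 0.052 in KO (adjusted p = 6.28e-19) and -1.85 ± 0.052 in WT (adjusted p = 6.13e-19), lower than for all but 1.36% and 1.21% of tested genes. Pdha1, which encodes the catalytic alpha subunit that PDK1 phosphorylates, also fell, with changes of -0.26 ± 0.047 in KO and -0.18 ± 0.048 in WT. Dlat, the acetyltransferase subunit gene, was called lower in WT (-0.15 ± 0.065, adjusted p = 0.0466), a call lost in 13 of 20 settings, and changed by -0.04 ± 0.062 in KO. The mitochondrial pyruvate carrier genes did not pass, with Mpc1 at 0.04 ± 0.08 in KO and 0.19 ± 0.082 in WT and Mpc2 at 0.02 ± 0.089 and -0.18 ± 0.093. In WT, Mpc1 was called higher in 6 of 20 alternative settings and Mpc2 lower in 1 of 20.

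The pentose phosphate genes rose little or not at all. G6pdx, the gene of the first and rate-limiting enzyme, rose by 0.17 ± 0.059 in KO (adjusted p = 0.0172) and 0.18 ± 0.061 in WT (adjusted p = 0.0147), calls lost in 3 and 4 of 20 settings. Tkt, the transketolase gene, rose by 0.11 ± 0.042 in KO, lost in 9 of 20 settings, and by 0.17 ± 0.042 in WT. Pgd, the second dehydrogenase of the pathway, changed by 0.09 ± 0.052 in KO and 0.12 ± 0.053 in WT, and Taldo1, the transaldolase gene, by -0.01 ± 0.051 and 0.05 ± 0.051, none past the threshold. Pgd was called higher in 1 of 20 alternative settings in KO and 4 of 20 in WT.

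The TCA genes moved in both directions around a core that did not pass the test. Idh2 (ENSMUSG00000030541, chr7:80094846-80115392, minus strand, GRCm38), which encodes the NADP-dependent mitochondrial isocitrate dehydrogenase, had 33.1, 31.3 and 33.3 CPM in KO effector and 40.1, 35.5 and 38.1 CPM in WT effector libraries, against 85.4, 80.0 and 74.6 CPM in KO naive and 82.7, 77.8 and 79.2 CPM in WT naive libraries. Effector and naive values were far apart, with log2 changes of -1.30 ± 0.06 in KO (adjusted p = 4.77e-15) and -1.07 ± 0.061 in WT (adjusted p = 2.13e-13). Idh3a, a subunit gene of the NAD-dependent isocitrate dehydrogenase that serves the same conversion, rose instead. It had 55.4, 55.5 and 55.7 CPM in KO effector and 61.0, 62.1 and 62.3 CPM in WT effector libraries, against 44.1, 47.6 and 46.6 CPM in KO naive and 43.0, 46.6 and 47.1 CPM in WT naive libraries, with log2 changes of 0.27 ± 0.053 in KO and 0.44 ± 0.054 in WT. Me2 (ENSMUSG00000024556, chr18:73769903-73815449, minus strand, GRCm38), the mitochondrial malic enzyme gene, whose product makes pyruvate from malate, had 81.1, 73.3 and 80.0 CPM in KO effector and 87.4, 88.7 and 87.8 CPM in WT effector libraries, against 128, 138 and 134 CPM in KO naive and 133, 132 and 130.4 CPM in WT naive libraries. It fell in both genotypes without overlap, with log2 changes of -0.77 ± 0.047 in KO and -0.58 ± 0.047 in WT. Small rises were called for Mdh1, the cytosolic malate dehydrogenase gene (0.19 ± 0.046 in KO and 0.16 ± 0.046 in WT), and Fh1, the fumarase gene (0.24 ± 0.066 and 0.19 ± 0.068, the WT call lost in 4 of 20 settings). Cs (citrate synthase), Ogdh (oxoglutarate dehydrogenase) and Mdh2 (mitochondrial malate dehydrogenase) did not pass in either genotype, with changes between -0.01 and 0.07.

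The 2 transcription factor genes moved oppositely. Hif1a (ENSMUSG00000021109, chr12:73901375-73947530, plus strand, GRCm38), the oxygen-regulated subunit of HIF-1, had 305, 374 and 312 CPM in KO effector and 274, 234 and 259 CPM in WT effector libraries, against 94.3, 104 and 105 CPM in KO naive and 95.2, 99.1 and 104 CPM in WT naive libraries. It rose in effector cells by 1.71 ± 0.077 in KO (adjusted p = 1.25e-11) and 1.37 ± 0.078 in WT (adjusted p = 3.11e-10). Myc (ENSMUSG00000022346, chr15:61985391-61990374, plus strand, GRCm38) had 52.8, 55.2 and 56.7 CPM in KO effector and 61.5, 78.6 and 59.7 CPM in WT effector libraries, against 93.3, 88.6 and 90.5 CPM in KO naive and 94.2, 103 and 93.0 CPM in WT naive libraries. All effector libraries were below all naive ones, with WT effector library 5 the highest of them, and the log2 change was -0.73 ± 0.078 in KO (adjusted p = 2.35e-07) and -0.55 ± 0.078 in WT (adjusted p = 8.59e-06). HIF-1 activity is set largely by protein stability, which RNA does not show.

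**Figure D4:**
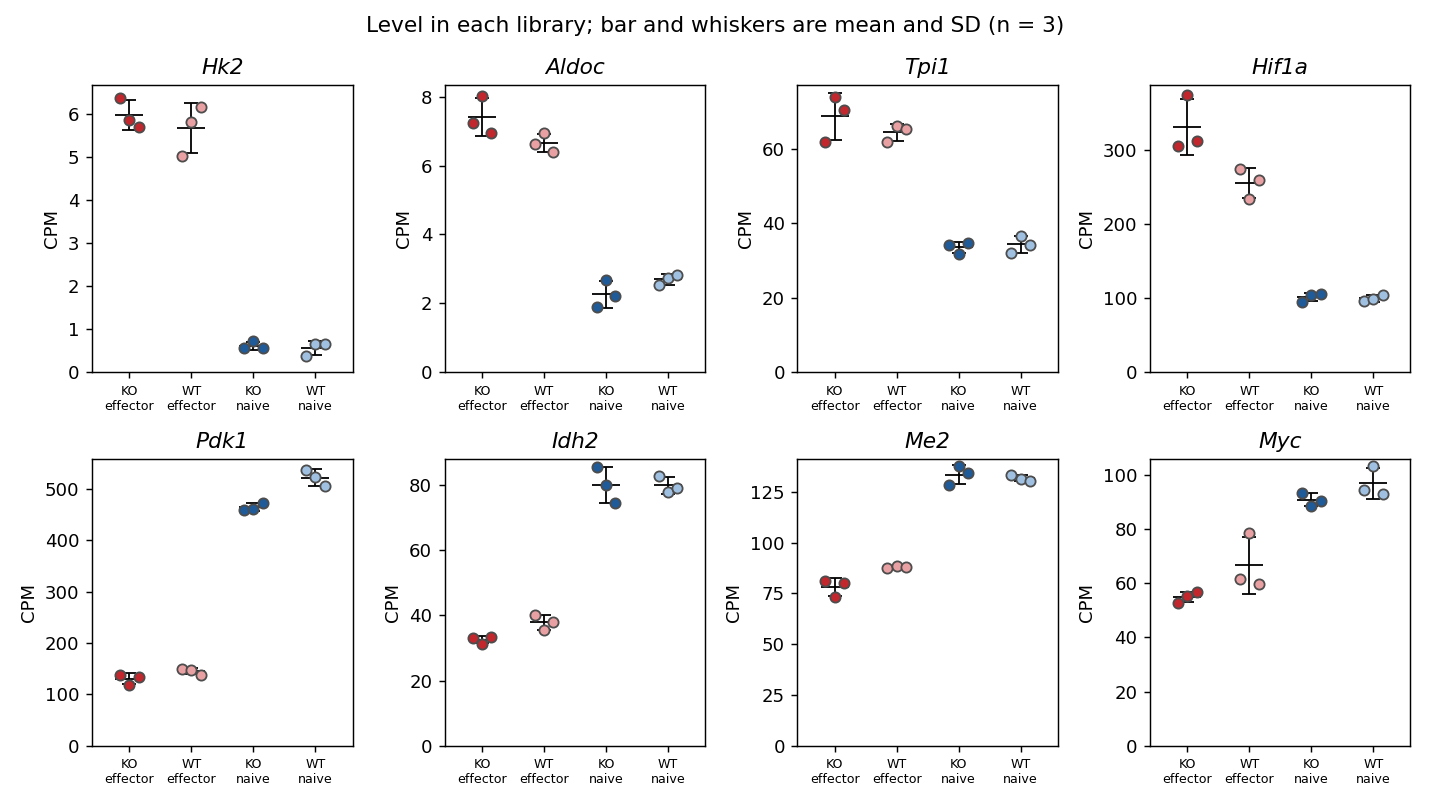
CPM of 8 of the genes in each library (points) with the mean and SD of each group (n = 3), from left to right KO effector, WT effector, KO naive and WT naive. Effector and naive points do not overlap in any panel. In effector cells the KO and WT values do not overlap for Aldoc, Hif1a, Pdk1, Idh2, Me2 and Myc. The nearest KO and WT values almost touch for Aldoc (6.952 and 6.94 CPM) and Pdk1 (138.2 and 138.4 CPM).

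To set the sequence beside these changes, the 250 bases upstream of the RefSeq start (GRCm38.p6) are shown for the genes called at 2-fold or more in the same direction in both genotypes, Hk2, Aldoc and Hif1a (higher) and Pdk1 and Idh2 (lower). Capitals mark ACGTG and GCGTG on either strand, the core letters of the hypoxia response element that HIF-1 binds; CACGTG, the E-box that MYC with MAX binds, holds ACGTG on both strands. Each sequence reads 5′ to 3′ toward the gene, and the windows are as follows.
Hk2, chr6:82774455-82774704, minus strand: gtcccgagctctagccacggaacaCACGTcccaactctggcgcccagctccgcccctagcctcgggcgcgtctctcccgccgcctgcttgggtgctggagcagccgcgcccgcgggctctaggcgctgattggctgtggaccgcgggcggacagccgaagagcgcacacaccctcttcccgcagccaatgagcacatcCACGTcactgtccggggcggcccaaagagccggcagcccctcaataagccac
Aldoc, chr11:78322823-78323072, plus strand: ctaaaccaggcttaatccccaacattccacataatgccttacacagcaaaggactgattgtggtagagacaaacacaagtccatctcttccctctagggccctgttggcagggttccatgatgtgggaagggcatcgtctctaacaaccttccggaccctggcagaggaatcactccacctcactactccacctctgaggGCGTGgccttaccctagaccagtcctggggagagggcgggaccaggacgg
Hif1a, chr12:73907617-73907866, plus strand: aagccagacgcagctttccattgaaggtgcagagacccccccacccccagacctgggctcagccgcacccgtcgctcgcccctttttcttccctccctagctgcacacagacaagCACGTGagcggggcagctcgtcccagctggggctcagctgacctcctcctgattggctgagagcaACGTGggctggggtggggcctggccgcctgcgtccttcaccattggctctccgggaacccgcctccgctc
Pdk1, chr2:71872974-71873223, plus strand: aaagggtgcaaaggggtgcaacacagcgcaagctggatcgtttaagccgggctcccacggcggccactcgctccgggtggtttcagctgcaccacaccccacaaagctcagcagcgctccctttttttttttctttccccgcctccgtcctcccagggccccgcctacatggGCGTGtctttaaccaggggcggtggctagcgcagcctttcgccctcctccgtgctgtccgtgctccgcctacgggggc
Idh2, chr7:80115351-80115600, minus strand: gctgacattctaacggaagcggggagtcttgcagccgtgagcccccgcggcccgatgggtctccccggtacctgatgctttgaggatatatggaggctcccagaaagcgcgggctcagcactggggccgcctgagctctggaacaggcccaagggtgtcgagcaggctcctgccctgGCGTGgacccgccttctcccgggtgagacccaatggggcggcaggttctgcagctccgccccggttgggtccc
The Hk2 window held 2 copies of ACGTG, both on the opposite strand, and the Hif1a window 1 CACGTG and 1 further ACGTG. The Aldoc, Pdk1 and Idh2 windows held 1 GCGTG each. The Hif1a window lies 6492 bases from the gene start in the deposited table. Of the 37 genes, 34 had a window, and Me2, Myc and Idh3a are only named. CACGTG stood in 3 of the 34 (8.82%, in Hif1a, Ldha and Pfkm), against 8.45% of 9872 tested genes with a window. ACGTG was in 9 (26.5%, against 22.1%) and GCGTG in 20 (58.8%, against 45.3%). A match is a description of letters and shows no binding.

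For genes of the same pathways outside the 37, the share called between effector and naive cells is set against 58.4% of all tested genes in KO and 56.2% in WT. Of 18 other glycolytic genes tested, 8 were higher and 5 lower in KO effector cells, and 9 higher and 4 lower in WT effector cells (72.2% called in each genotype). Slc2a3, which encodes the glucose transporter GLUT3, rose by 1.16 ± 0.054 in KO and 1.24 ± 0.055 in WT. Slc16a3, the gene of the lactate exporter MCT4, rose by 3.12 ± 0.18 and 2.73 ± 0.20, and Adpgk, the ADP-dependent glucokinase gene, fell, with changes of -0.63 ± 0.053 and -0.72 ± 0.054. Among 11 other genes of the pyruvate dehydrogenase complex, 1 was higher and 5 lower in KO (54.5%), and 1 higher and 4 lower in WT (45.5%). With both directions together, these shares were below that of all tested genes. The share called lower alone was above that of all tested genes, 26.8% in KO and 25.9% in WT. The complex's kinase gene Pdk3 rose by 0.52 ± 0.086 in KO and 0.52 ± 0.091 in WT. Its kinase gene Pdk2 changed by -0.33 ± 0.09 and -0.46 ± 0.093 and the beta subunit gene Pdhb by -0.27 ± 0.051 and -0.23 ± 0.052. All 3 genes were past the threshold. Of 10 other pentose phosphate genes, 2 were higher and 4 lower in KO (60.0%) and 3 higher and 4 lower in WT (70.0%). Of 21 other TCA genes, 7 were higher and 4 lower in KO (52.4%) and 9 higher and 1 lower in WT (47.6%). With both directions together, this was again below the share of all tested genes. By direction, 33.3% were called higher in KO and 42.9% in WT, against 31.6% and 30.2% of all tested genes. Pck2, the mitochondrial phosphoenolpyruvate carboxykinase gene, rose by 0.76 ± 0.069 in KO and 0.58 ± 0.072 in WT, and Slc25a1, the citrate carrier gene, by 0.66 ± 0.077 and 0.62 ± 0.079.

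The lists built around the 2 factors are read against the same shares, 31.6% higher and 26.8% lower of all tested genes in KO and 30.2% and 25.9% in WT. Of 20 partners and regulators, 9 were higher and 6 lower in KO (75% called), and 8 higher and 5 lower in WT (65%). Egln3, a prolyl hydroxylase gene that marks HIF for degradation, averaged 28.2 ± 2.86 CPM in KO effector against 3.10 CPM in KO naive cells, and 23.9 ± 2.91 CPM in WT effector against 2.84 CPM in WT naive cells. Mxd4, which encodes a MAX partner that represses, rose by 1.19 ± 0.057 in KO and 1.08 ± 0.058 in WT. Of 13 known HIF-1 targets outside glycolysis, 1 was higher and 5 lower in KO (46.2% called). In WT, 1 was higher and 6 lower (53.8%). With both directions together, these shares were below those of all tested genes (58.4% and 56.2%). By direction, the share called higher was below that of all tested genes (7.69% in each genotype), and the share called lower was above it. The median log2 change of the list was -0.07 in KO and -0.41 in WT. Ero1l, an oxidase gene of the endoplasmic reticulum, changed by 0.79 in KO and 1.02 in WT. The histone demethylase gene Kdm3a changed by -0.42 and -0.48. Of 15 MYC targets outside glycolysis, 1 was higher and 12 lower in KO (86.7%) and 2 higher and 10 lower in WT (80.0%). Odc1, the ornithine decarboxylase gene, rose by 2.18 ± 0.065 in KO and 1.92 ± 0.067 in WT, and Npm1, a nucleolar protein gene, fell, with changes of -0.85 ± 0.057 and -0.75 ± 0.058.

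Against WT, KO effector cells differed in 1 of the 37 genes, which was higher, and in none that was lower. That is 2.70%, where 3.16% of all tested genes were called (1.45% higher and 1.72% lower). Hif1a had 305, 374 and 312 CPM in KO effector libraries, against 274, 234 and 259 CPM in WT effector libraries. Every KO library was above every WT library, and the log2 fold change was 0.37 ± 0.074 (edgeR adjusted p = 0.0129). The call held in 18 of 20 alternative settings with log2 values of 0.27 to 0.43, and was lost without WT effector library 6 (adjusted p = 0.0532) and with limma on log2(FPKM + 0.1) (adjusted p = 0.0678). In naive cells Hif1a had 94.3, 104 and 105 CPM in KO libraries, against 95.2, 99.1 and 104 CPM in WT libraries, which overlap (0.03 ± 0.079, adjusted p = 0.946). The difference between the 2 KO effects was 0.34 ± 0.11 and did not pass (adjusted p = 0.305). The regulatory T cell markers were also higher in KO effector libraries, 1470 to 1710 against 1250 to 1450 CPM in WT effector libraries, with Foxp3 and Ctla4 called. They also summed to more in KO naive libraries, 206 to 219 against 175 to 193 CPM in WT naive libraries, with none of the 5 called. In KO effector libraries the NK cell markers summed to less, 111 to 144 against 165 to 173 CPM in WT effector libraries. Of 4 tested, 3 were lower and 1 higher in the fit, and Klrb1c and Klrk1 were called lower. Of 9 B cell markers tested, 7 were higher and 2 lower in the fit, with a median log2 fold change of 0.41. Only Cd22 among them was called, as lower. The B cell list summed to 1070 to 1300 CPM in KO effector and 921 to 1100 CPM in WT effector libraries. The 12 cell cycle genes were each lower in the fit, with a median log2 fold change of -0.26. None of the 12 passed the threshold in edgeR, DESeq2 or limma-voom, and 3 had an unadjusted edgeR p below 0.05, as did 16.1% of all tested genes. The part of these markers in the Hif1a value was not tested.

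**Figure D5:**
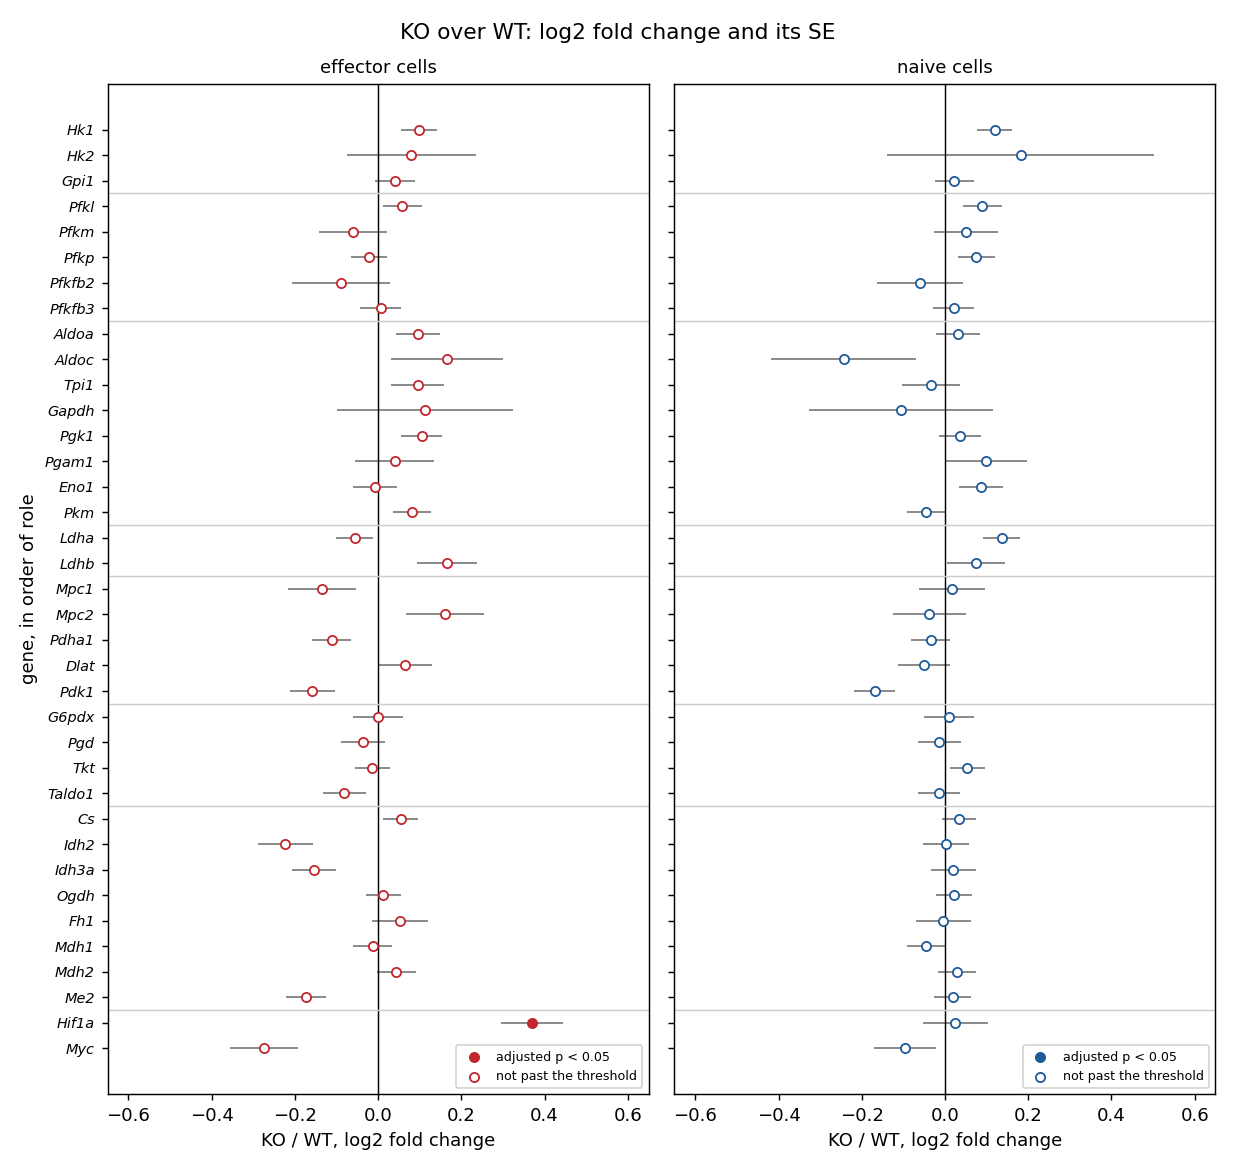
Log2 fold change of KO over WT with its SE for each of the 37 genes in effector (left) and naive (right) cells; the filled point passed an adjusted p of 0.05. Hif1a in effector cells is the only filled point, and Idh2, Me2, Pdk1, Idh3a and Myc lie to the left of 0 there.

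Several genes had no overlap between KO and WT effector libraries, by narrow margins for Aldoc and Pdk1, without passing the test. Libraries did not overlap for 6 genes that were higher in KO (Hk1, Aldoc, Pgk1, Ldhb, Cs and Hif1a) and 6 that were lower (Pdha1, Pdk1, Idh2, Idh3a, Me2 and Myc), where 9.18% of all tested genes did not overlap upward and 8.73% downward. Unadjusted p was below 0.05 for 10 of the 37, against 16.1% of all tested genes. Me2 differed by -0.17 ± 0.049 (adjusted p = 0.0524), Idh2 by -0.22 ± 0.065 (adjusted p = 0.0642), Myc by -0.27 ± 0.081 (adjusted p = 0.0794), Pdk1 by -0.16 ± 0.053 (adjusted p = 0.117) and Idh3a by -0.15 ± 0.053 (adjusted p = 0.127). Under at least 1 of 20 alternative settings Me2, Idh2, Myc and Pdk1 were called lower. The median over the 37 genes was 0.01, against 0.00 over all tested genes. For 35 of the 37 genes the 95% interval of the difference lay within 0.5 on the log2 scale on both sides, the exceptions being Gapdh and Hif1a.

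In naive cells no gene of the 37 was called between KO and WT by edgeR, where 1.18% of all tested genes were. Unadjusted p was below 0.05 for 3 of them (Hk1, Ldha and Pdk1), against 11.9% of all tested genes, and DESeq2 called 0 in either direction. Pdk1, with 458, 462 and 473 CPM in KO naive libraries and 537, 523 and 505 CPM in WT naive libraries, did not overlap and differed by -0.17 ± 0.049 (adjusted p = 0.107). Ldha was higher in each KO naive library than in any WT naive one and differed by 0.14 ± 0.045 (adjusted p = 0.168). Libraries did not overlap for 5 genes higher in KO (Hk1, Pfkl, Pfkp, Ldha and Tkt) and 2 lower (Pdha1 and Pdk1), where 10.7% and 9.72% of all tested genes did not. The median log2 difference was 0.02, and the 95% interval lay within 0.5 on both sides for 34 of the 37 genes, all but the low-count Hk2, Aldoc and Gapdh.

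No gene of the 37 passed the edgeR test of whether the KO effect differed between effector and naive cells, where 0.145% of all tested genes did. Unadjusted p was below 0.05 for 5 of them, against 9.19% of all tested genes, and DESeq2 called 0. Of the 108 other pathway genes tested, none was called by edgeR between KO and WT in naive cells, where 1.18% of all tested genes were. The unadjusted edgeR p was below 0.05 for 7 of the 108, against 11.9% of all tested genes, and DESeq2 and limma-voom called 0. In effector cells 1 was called (0.926%, against 3.16% of all tested genes). That gene, Tktl1, a transketolase-like gene, had 1.86, 1.69 and 1.68 CPM in KO effector libraries, against 2.89, 3.73 and 3.74 CPM in WT effector libraries. Its values did not overlap and differed by -0.98 ± 0.25 (adjusted p = 0.0273). It was not among the calls of DESeq2, which called 1 of these genes higher and 0 lower.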

How the data were processed

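RNA from sorted cells was made into stranded mRNA libraries, per the labels' protocols. The deposited raw table gives, for each gene, whole-number counts in 12 libraries (per the file headers). The deposited FPKM table equalled these counts divided by 1 length per gene and 1 size factor per library, within 0.001 log2 on all 11921 genes with enough counts, so both are 1 measurement. The submitters' processing notes name STAR, Picard, DESeq2 1.30.0, mm10 and GRCm38 without roles. Which counter was used, with what strand setting and what handling of shared reads, was not given in the sources used here. Columns were matched to groups by name, and libraries carry the columns' numbers.

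The counts entered edgeR 4.0.16 (R 4.3.3). A filter by group (filterByExpr, minimum count 10) kept 15905 genes, followed by TMM normalisation, a robust quasi-likelihood model with 4 group coefficients over 12 libraries, and Benjamini-Hochberg adjustment over all tested genes at 0.05. The biological coefficient of variation was 5.21%. The model was tested on simulated data. Contrasts were effector against naive in KO and in WT, KO against WT in each cell type, and the difference of the KO effects. Within groups, no 2 libraries agreed within sampling noise, so none was merged as a duplicate; this does not show that they are from different mice. Of 2 rows named Aldoa, the first was used. Isoform shares are of FPKM, compared with two-sided exact permutation tests. Windows of 50 bases were searched in GENCODE M21 transcripts, and promoter letters in RefSeq windows of GRCm38.p6. Intervals and SE cover the spread between libraries under the model.

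The members and lists were chosen with earlier results of these data known. Named genes were all 37 members, up to 4 called genes of each other pathway list by smallest p for effector against naive in WT, those called between KO and WT, Rinl, Cd44 and copies whose symbol starts with a member's. The other markers and overlapping neighbours named were chosen after their values were seen. As alternatives, edgeR took DESeq2's size factors, the filter was dropped or raised to a mean of 5 CPM, the fit was limited to the groups compared, each library was left out, and DESeq2 1.42.0, limma-voom (limma 3.58.1) and limma on log2(FPKM + 1) and log2(FPKM + 0.1) replaced edgeR.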

Additional observations from a re-analysis of the deposited data

How the results depend on the processing

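The counts of called genes among the 37 for effector against naive cells stayed within 1.5 times of the reported ones in both directions and both genotypes under every setting run. For KO against WT in naive cells, where none was called, 1 was called higher with only the groups compared, 1 lower with that fit and with no filter on low counts, and 0 to 1 lower with a library left out (1 without KO effector library 11). In effector cells the 1 higher call became 0 with limma on log2(FPKM + 0.1) and 0 to 1 with a library left out (0 without WT effector library 6). The 0 lower calls became 1 with DESeq2, 1 with a mean of at least 5 CPM, 4 with no filter, and 0 to 2 with a library left out (1 without WT effector library 4 or 6, 2 without KO effector library 10). For the difference of the KO effects, 1 (Hif1a) was called higher with no filter. The cause was not tested.

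As a share of counts in place of FPKM, the effector minus naive difference in the Hk2 share was 2.21 percentage points in KO and 2.25 in WT, against 1.92 and 1.96, and in the Aldoc share 1.12 in KO and 0.895 in WT, against 0.693 and 0.554. Shares of counts weight a gene by its length. Among single genes, 57 calls were lost and 27 gained over all settings, and none reversed. Over all tested genes, KO against WT called 187 in naive cells (40 with another tool or filter at the lowest, 528 at the highest with only the groups compared, and 66 to 255 with a library left out) and 503 in effector cells (139 to 959, and 194 to 662).

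The count restricted to genes with under 20% shared windows was chosen after seeing the data. No paired analysis was possible because the columns carry no replicate numbers of the labels. The effector against naive tests therefore treated all libraries as independent. The erythroid and platelet markers summed to 44.8 CPM in WT naive library 3 and 47.3 CPM in WT effector library 6. In all other libraries they summed to between 10.2 CPM (KO naive library 9) and 19.1 CPM (KO effector library 12). Whether naive and effector libraries came from the same mice was not tested. Hk2, Aldoc and Gapdh have few counts in naive cells, where their intervals are wide.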

Other observations

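Other genes at the edges of these pathways differed between the cell types. Bhlhe40, a transcription factor gene of the basic helix-loop-helix family, averaged 112 ± 8.68 CPM in KO effector against 1.82 CPM in KO naive cells, and 123 ± 18.7 CPM in WT effector against 1.16 CPM in WT naive cells (log2 fold change 5.93 ± 0.15 in KO and 6.76 ± 0.17 in WT). Galm, the galactose mutarotase gene, rose by 1.86 ± 0.072 in KO and 1.73 ± 0.077 in WT. Hif1an, the gene of an asparagine hydroxylase that limits HIF activity, rose by 0.37 ± 0.046 in KO and 0.47 ± 0.046 in WT. The phosphatase gene Pdp1, whose product reactivates pyruvate dehydrogenase, fell, with changes of -0.33 ± 0.088 in KO and -0.47 ± 0.091 in WT. Prps1 and Prps2, which make the ribose precursor of nucleotides, also fell, with changes of -0.33 ± 0.056 and -0.28 ± 0.048 in KO and -0.39 ± 0.057 and -0.42 ± 0.049 in WT, and Rpia, the ribose phosphate isomerase gene, rose by 0.41 ± 0.062 in KO and 0.34 ± 0.065 in WT.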
